A study of Mus musculus with 26 samples.

Results

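The genes described here are 8 non-coding snoRNA host genes of the mouse, Gas5, Snhg1, Snhg3, Snhg5, Snhg6, Snhg8, Snhg12 and Snhg15, chosen by name as hosts whose spliced RNA is known from earlier work to be a substrate of nonsense-mediated decay (NMD). All 8 were among the 55291 genes of the count table, and all 8 were among the 20953 genes whose counts were high enough to test. The RNA-seq libraries came from R1 mouse embryonic stem cells (mESCs) carried through several routes to a totipotent-like state, in which genes of the early cleavage embryo are switched on. There were 26 libraries in 13 groups of 2. The controls were untreated cells (ESC) and cells given the solvent DMSO, and their labels give no time and no doxycycline dose. PlaB cells received pladienolide B at 4 nM for 4 days, and RA cells received retinoic acid at 0.53 µM for 48 h. DUX OE, DUXR70A OE and ZSCAN4 OE cells overexpressed DUX, its R70A mutant or ZSCAN4, and were given doxycycline at 4 µg/mL for 24 h. DUX KD cells carried a knockdown of Dux and were studied with PlaB, with RA or with ZSCAN4 overexpression. SE KO cells lacked a super-enhancer at the Tdpoz genes and were studied with PlaB, with RA or with DUX overexpression. The last of these also had doxycycline at 4 µg/mL for 24 h. Since the control labels give neither, time in culture and doxycycline cannot be told apart from the agent or the overexpressed gene. No group held untreated DUX KD or SE KO cells, and the labels do not say whether a line was 1 clone. The genotype label of SE KO RA replicate 1 reads WT although its title reads SE KO, and the DUX KD ZSCAN4 OE libraries carry no time and the treatment label "no". The labels do not say that replicates came from separate cultures, so p-values measure the spread between these libraries.

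Small nucleolar RNAs (snoRNAs) guide chemical modification and processing of ribosomal RNA, box C/D snoRNAs directing methylation and box H/ACA snoRNAs directing pseudouridylation. In mammals nearly all are cut out of the introns of a host gene, so splicing the host RNA releases the snoRNA and leaves a joined set of exons. In the genes studied here those exons hold only short reading frames. Because an early stop codon followed by an exon junction marks an RNA for NMD, the spliced host RNA is destroyed soon after the first ribosome reads it, and its level depends on transcription, splicing, translation and decay together. Many hosts start in a 5′ terminal oligopyrimidine (TOP) tract, like the genes of ribosomal proteins. Pladienolide B binds the SF3B complex of the U2 snRNP, which recognises the branch point of introns.

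The start-site windows and a few of the snoRNAs are shown because both classes of RNA, the host and its passenger, leave from these sequences. The windows run from 60 bases before to 30 bases after the start of transcription (RefSeq start sites, GRCm38.p6, coding strand, 5′ to 3′). RefSeq promoter sequences were found for 7 of the 8 hosts, with separate starts for Gas5, and Snhg6 was not among them. Capitals mark TATA between 60 and 11 bases before the start, with an adjoining TA where there is one, and CTTT within 20 bases of the start.
Gas5, start 2, chr1:161035106-161035195, plus strand: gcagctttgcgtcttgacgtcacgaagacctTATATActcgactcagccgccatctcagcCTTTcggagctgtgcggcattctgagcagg
Snhg1, chr19:8723427-8723516, plus strand: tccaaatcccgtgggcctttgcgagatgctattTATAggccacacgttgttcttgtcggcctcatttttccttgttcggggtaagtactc
Snhg3, chr4:132353657-132353746, minus strand: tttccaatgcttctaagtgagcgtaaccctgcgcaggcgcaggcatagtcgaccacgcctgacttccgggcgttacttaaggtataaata
Snhg5, chr9:88522868-88522957, minus strand: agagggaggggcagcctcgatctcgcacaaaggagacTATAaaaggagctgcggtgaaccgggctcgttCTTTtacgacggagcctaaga
Snhg8, chr3:123508307-123508396, minus strand: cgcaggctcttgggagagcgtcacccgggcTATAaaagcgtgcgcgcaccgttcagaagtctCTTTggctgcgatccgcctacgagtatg
Snhg12, chr4:132308618-132308707, plus strand: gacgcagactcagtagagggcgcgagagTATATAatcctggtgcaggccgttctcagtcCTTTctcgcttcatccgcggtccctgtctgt
Snhg15, chr11:6528731-6528820, minus strand: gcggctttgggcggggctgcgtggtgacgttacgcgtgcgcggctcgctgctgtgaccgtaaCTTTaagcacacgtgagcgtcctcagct

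TATA in that window and on that strand was present in 5 of the 8 start sites of the hosts, against 9.47% of 32851 mouse start sites. CTTT was present in 5 of 8, against 15.9%, and both in 4 of 8, against 1.92%. The window not printed, Gas5 start 1, held neither. These matches describe the letters of the windows only.

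The spans of the 8 hosts held 27 annotated snoRNA genes, 8 each in Gas5 and Snhg1, 4 in Snhg12, 2 each in Snhg3 and Snhg5 and 1 each in Snhg6, Snhg8 and Snhg15. Of these, 16 held a C box (TGATGA in the first 25 bases) and a D box (CTGA in the last 20 bases), 6 held an ACA box 3 bases before their end, and 5 held neither by this search. The examples below (GRCm38, coding strand) are 1 snoRNA each from Snhg6, Snhg5, Snhg12 and Snhg15, the hosts called at 2-fold in PlaB other than Snhg3, which had few reads, with those boxes in capitals.
Snord87 in Snhg6, chr1:9942463-9942549, minus strand: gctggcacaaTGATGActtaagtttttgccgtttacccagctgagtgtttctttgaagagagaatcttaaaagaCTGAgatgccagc
Snord50a in Snhg5, chr9:88521529-88521600, minus strand: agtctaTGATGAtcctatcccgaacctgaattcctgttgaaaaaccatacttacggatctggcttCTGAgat
Snord99 in Snhg12, chr4:132310691-132310764, plus strand: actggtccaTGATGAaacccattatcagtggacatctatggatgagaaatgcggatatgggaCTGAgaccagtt
Snora9 in Snhg15, chr11:6528033-6528165, minus strand: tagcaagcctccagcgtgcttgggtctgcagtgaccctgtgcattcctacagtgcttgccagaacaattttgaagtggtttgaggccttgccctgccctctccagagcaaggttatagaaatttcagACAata

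The libraries were selected for poly(A) RNA, which snoRNAs lack, and 26 of the 27 snoRNA genes had no read in any library. In 25 of the 27 the snoRNA shared bases with what the table counts as host exon (159 of 205 bases for Snora73a), and featureCounts by default leaves out a read that falls in more than 1 gene. The setting used is not given in the sources used here, so whether those zeros reflect the counting or the RNA was not tested. The bases of Snora73b and Snord87 lie outside the host exons of the table. Snora73b had no reads, and Snord87 had between 0 and 81.

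What a host count measures differed among the 8 genes. In the annotation 20 of 25 Gas5 transcripts and 14 of 18 Snhg1 transcripts are of the retained-intron class, and the exons of the table filled 91.3% of the span of Gas5 and 100% of that of Snhg1, Snhg8 and Snhg12. Their counts therefore pool spliced RNA with RNA that still holds introns. The corresponding shares were 83.2% for Snhg15, 53.1% for Snhg6, 17.4% for Snhg3 and 12.8% for Snhg5. The Snhg5 entry of the table is longer than the GRCm38 annotation used here (chr9:88495268-88523562 against chr9:88521050-88522929), and 6 of the 8 entries matched it exactly. Snhg3 is the uncertain member: only 135 of its 986 exonic bases (13.7%) lie in no other gene, since it shares bases with Rcc1 on its own strand and with Gm17300 on the opposite strand, and it had between 0 and 57 reads. For the other 7 hosts, between 79.1% and 96% of the exonic bases were their own, and the counts ran from 48 (Snhg12 in PlaB) to 3956 (Gas5 in PlaB).

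**Figure D1:**
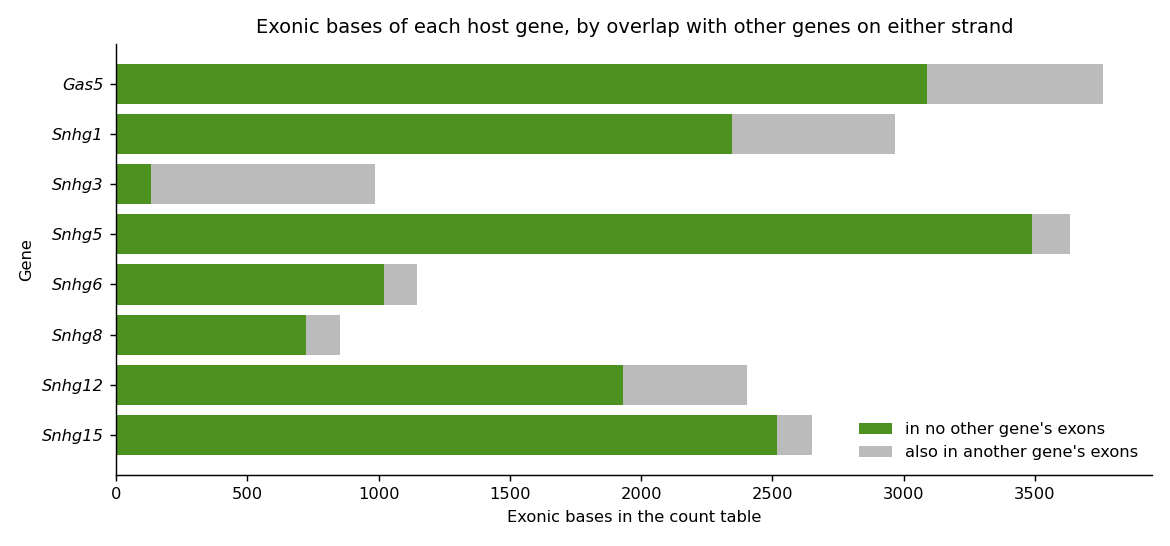
Exonic bases of each host gene as listed in the count table (horizontal axis, bases), split into bases in no other gene's exons (green) and bases shared with another gene on either strand (grey). Snhg3 kept 135 of 986 bases and the other 7 hosts kept at least 79.1% of theirs.

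Annotated transcripts outside the retained-intron class, called spliced here, were searched for what NMD reads, a stop codon and a junction beyond it. Each had at least 2 exons, but some can still hold introns. None of the 10 Snhg12 transcripts was of the retained-intron class. The exons of the table nevertheless filled 100% of the span of Snhg12 and shared bases with all 4 of its snoRNAs. The longest reading frames ran from 20 codons (in an Snhg3 transcript) to 81 codons (in a Gas5 transcript). An exon junction lay more than 50 bases after the stop of the first reading frame in 5 of 5 spliced Gas5 transcripts, 3 of 4 of Snhg1, 2 of 5 of Snhg3, 2 of 3 of Snhg5, 4 of 5 of Snhg6, 2 of 2 of Snhg8, 9 of 10 of Snhg12 and 3 of 4 of Snhg15. Counted from the longest reading frame instead, the numbers were 3 of 5 for Gas5, 3 of 4 for Snhg1, 1 of 5 for Snhg3, 0 of 3 for Snhg5, 3 of 5 for Snhg6, 2 of 2 for Snhg8, 6 of 10 for Snhg12 and 0 of 4 for Snhg15. The feature thus depended on which frame is taken as read, and the first frame of both Snhg8 transcripts was 1 codon long. Gas5 spliced transcripts had 8 to 12 exons.

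Libraries held from 14401452 to 39402840 counted reads, with a median of 18276934. Levels are given as CPM, the reads of a gene over all reads of its library, scaled to a fixed total and by library composition, and 3 reads corresponded to 0.0796 to 0.226 CPM. Duxf3, the mouse Dux gene, had 191 and 181 reads in PlaB, 1 and 0 in DUX KD PlaB, 49 and 59 in RA, and 16 and 6 in DUX KD RA. It had 55 and 48 reads in DUX OE, 3 and 0 in ESC, and 0 and 0 in the libraries labelled DUXR70A OE. Whether reads of the introduced constructs are counted under Duxf3 is not given in the sources used here. Zscan4d, a gene of the early cleavage programme, had 87207 and 97211 reads in PlaB, 6237 and 4447 in SE KO PlaB, 34 and 44 in DUX KD PlaB and 40 and 25 in DMSO. It had 15 and 20 reads in the libraries labelled DUX KD ZSCAN4 OE, against 1791 and 2238 in ZSCAN4 OE. The 8 stem cell markers (among them Pou5f1, Sox2 and Nanog) were detected in all groups, with a summed level from 3237 CPM in SE KO RA to 8329 CPM in DMSO. In PlaB the members of that list differed in direction: the mean of Sox2 was 26.2 CPM against 592 in DMSO, that of Nanog 74.1 against 911 and that of Esrrb 92.1 against 1159, whereas Dppa5a was at 2551 against 1407 and Zfp42 at 1251 against 946. The summed level of 5 primitive endoderm markers was 89.0 to 94.4 CPM in DMSO, 151 to 152 in PlaB, 361 to 384 in RA, 430 to 582 in SE KO PlaB and 295 in ESC. Sparc made up most of these sums, with a mean of 291 CPM in ESC and 84.5 in DMSO. Gata6 was at 0.860 CPM in ESC, 1.64 in DMSO, 5.72 in PlaB, 26.9 in RA and 37.6 in SE KO PlaB. In PlaB, Gata4 (1.89 against 2.32) and Sox7 (1.78 against 3.01) were lower than in DMSO, and Gata6, Sox17 and Sparc were higher. The part of these differences in the host levels was not tested. Of 6 fibroblast markers 3 had no reads in DMSO, and their summed level was 9.44 to 60.4 CPM outside SE KO DUX OE, where it was 115 to 117 CPM.

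Per kilobase of exon, the hosts of DMSO cells spanned a wide range. The divisor was the exonic length in the count table, 3760 bases for Gas5 and 853 for Snhg8. Their annotated spliced transcripts were 346 to 665 and 448 to 528 bases long. The order of the genes therefore depends on the lengths listed in the table as well as on the RNA. Snhg8 (28.9 ± 1.06 CPM per kb, SD, n = 2), Gas5 (28.8 ± 0.389) and Snhg1 (27.6 ± 0.172) were highest, with the libraries of Snhg8 and Gas5 overlapping, and Snhg6 followed at 21.4 ± 0.482. Snhg5 (10.7 ± 0.453) and Snhg12 (10.6 ± 0.0405) did not differ beyond their spread, and Snhg15 stood at 5.98 ± 0.109. Snhg3 was at 0.198 ± 0.0447. In PlaB cells the order was Snhg6 (109 ± 7.52), Gas5 (46.7 ± 1.43), Snhg8 (44.96 ± 2.38), Snhg15 (41.7 ± 1.33), Snhg1 (36.2 ± 1.91), Snhg5 (4.64 ± 0.287), Snhg3 (1.95 ± 0.951) and Snhg12 (0.987 ± 0.114). By this measure Snhg12 and Snhg5 had sat beside each other in DMSO, and both stood near the bottom in PlaB.

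PlaB against DMSO asked how the hosts stood after 4 days of splicing inhibitor. All 8 passed the test (adjusted p under 0.05), but not in 1 direction: 6 rose and 2 fell. Across all genes 41.7% passed as higher and 35.4% as lower, so a host that passed was in the company of most genes. Under the stricter rule of an adjusted p under 0.05 and at least a 2-fold difference, 3 hosts were higher (32.3% of all genes) and 2 were lower (26.6% of all genes). The median log2 fold change of the 8 hosts was 0.67, beside 0.22 for all genes tested. That median of all genes was 0.38 with RLE size factors and 0.48 with library size alone, and under both every host kept its direction.

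Snhg12, which hosts 3 H/ACA snoRNAs and the C/D snoRNA Snord99, fell the most. Its level was 25.4 and 25.5 CPM in DMSO and 2.57 and 2.18 CPM in PlaB, a 10.7-fold fall (log2 fold change -3.42, SE 0.18, adjusted p = 5.7e-16). The PlaB libraries were the lowest of all 26, and the next lowest group was RA at 5.99 and 4.75 CPM.

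Snhg15, host of the H/ACA snoRNA Snora9, rose. It stood at 15.6 and 16.1 CPM in DMSO and at 108 and 113 CPM in PlaB, which is 6.98-fold (log2 fold change 2.80, SE 0.14, adjusted p = 3.8e-16). No other group came above 38.4 CPM in any library.

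Snhg6, host of the C/D snoRNA Snord87, rose from 24.2 and 24.9 CPM to 119 and 131 CPM, or 5.08-fold (log2 fold change 2.34, SE 0.14, adjusted p = 8.0e-15). Both PlaB libraries lay far above the remaining 24, of which the highest had 40.9 CPM. Mcmdc2, which overlaps the last 127 exonic bases of Snhg6 on the opposite strand, had 19 and 23 reads in DMSO and 199 and 276 in PlaB, against 426 and 455, and 2449 and 2883, for Snhg6. The part of those reads in the Snhg6 value was not tested.

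Snord87 itself was higher in PlaB as well. It had 8 and 11 reads in DMSO and 63 and 81 in PlaB (log2 fold change 2.65, SE 0.51, adjusted p = 4.2e-05), while SE KO PlaB held 26 and 15 reads and DUX KD PlaB 6 and 8. In DUX KD ZSCAN4 OE it had 18 and 18 reads, against 4 and 5 in ESC (log2 fold change 2.09, adjusted p = 0.0139). Snhg6 rose by 0.46 on the log2 scale in that comparison. Reads in poly(A)-selected libraries that map to an intronic snoRNA gene can come from the snoRNA or from host RNA that still holds its intron, and these sources cannot be told apart in the counts.

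**Figure D2:**
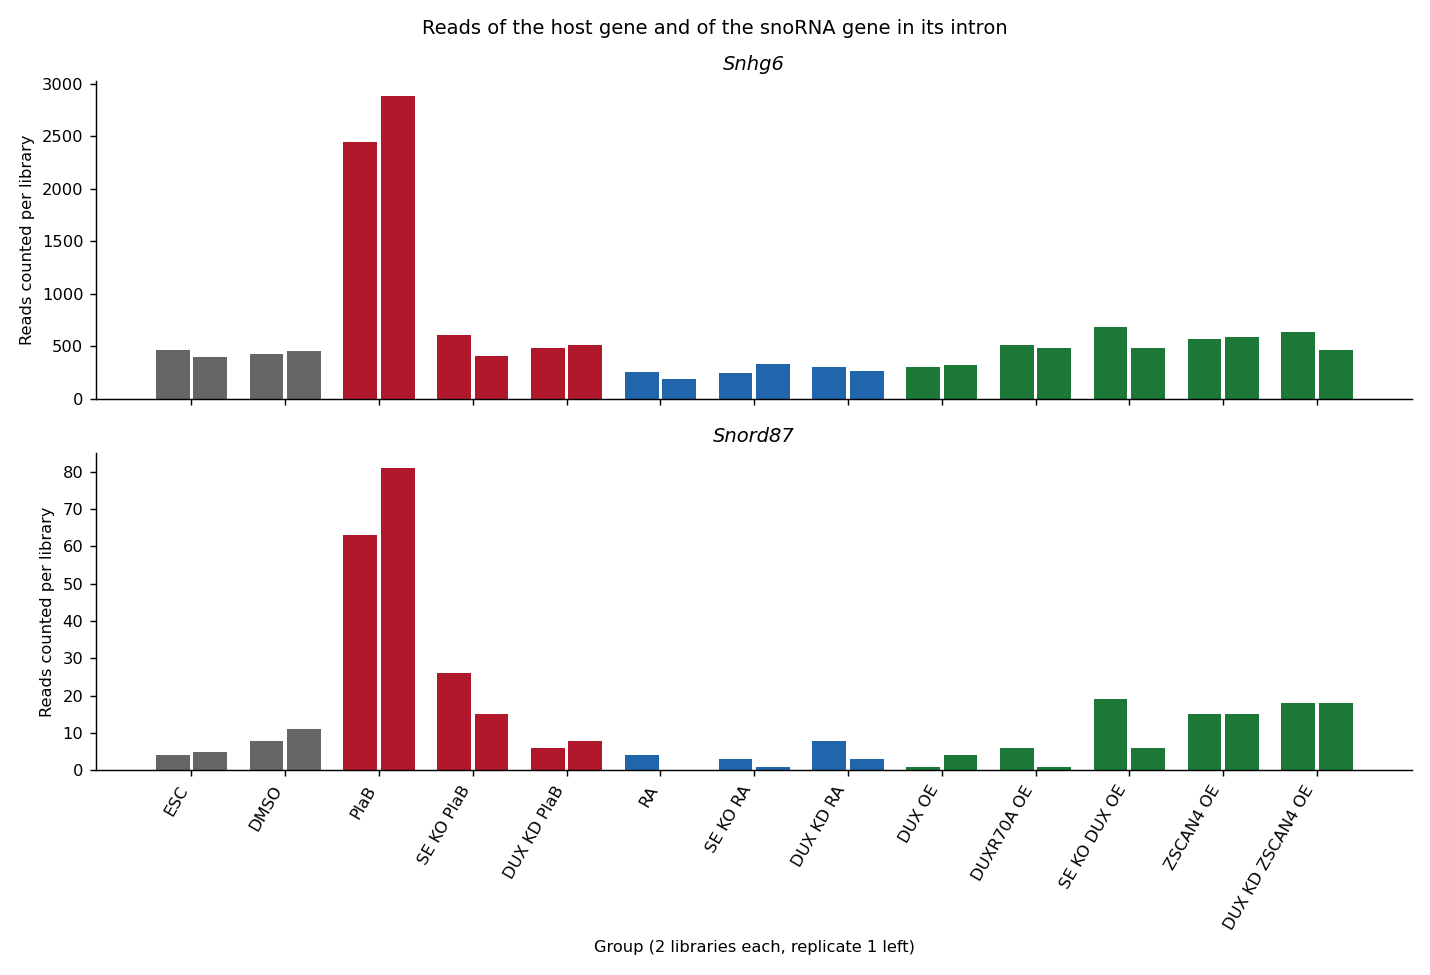
Reads counted per library (vertical axes, linear) for Snhg6 and for Snord87, the snoRNA gene in its intron, in 13 groups with replicate 1 on the left. The PlaB bars stand highest in both panels, at 2449 and 2883 reads for Snhg6 and 63 and 81 for Snord87.

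Snhg5, host of the C/D snoRNAs Snord50a and Snord50b, fell. It went from 40.2 and 37.9 CPM to 16.1 and 17.6 CPM, a 2.31-fold fall (log2 fold change -1.21, SE 0.16, adjusted p = 1.6e-07). With library size alone as the scale its log2 fold change was -0.95, which is short of 2-fold.

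Gas5, the growth-arrest transcript with the most snoRNAs alongside Snhg1, rose from 109 and 107 CPM to 172 and 179 CPM (1.62-fold, log2 fold change 0.70, SE 0.14, adjusted p = 6.8e-05). Snhg8, host of Snora24, rose from 25.3 and 24.0 CPM to 39.8 and 36.9 CPM (1.56-fold, log2 fold change 0.64, SE 0.16, adjusted p = 8.0e-04). Snhg1 rose the least, from 82.3 and 81.6 CPM to 103 and 111 CPM (1.31-fold, log2 fold change 0.39, SE 0.15, adjusted p = 0.0187), not far above the median of all genes. For all 3 the libraries of the groups did not overlap.

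Snhg3, host of the H/ACA snoRNAs Snora73a and Snora73b, had 4 and 3 reads in DMSO and 26 and 57 in PlaB. The fitted log2 fold change was 3.26 with an SE of 0.64 (adjusted p = 6.1e-05), the widest error among the 8. Beside it, Gm17300 on the opposite strand rose from 113 and 139 reads to 690 and 840 (log2 fold change 2.35, adjusted p = 9.3e-12), and Rcc1 on the same strand fell (log2 fold change -1.04, adjusted p = 6.4e-13). The part of either in the Snhg3 count was not tested.

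**Figure D3:**
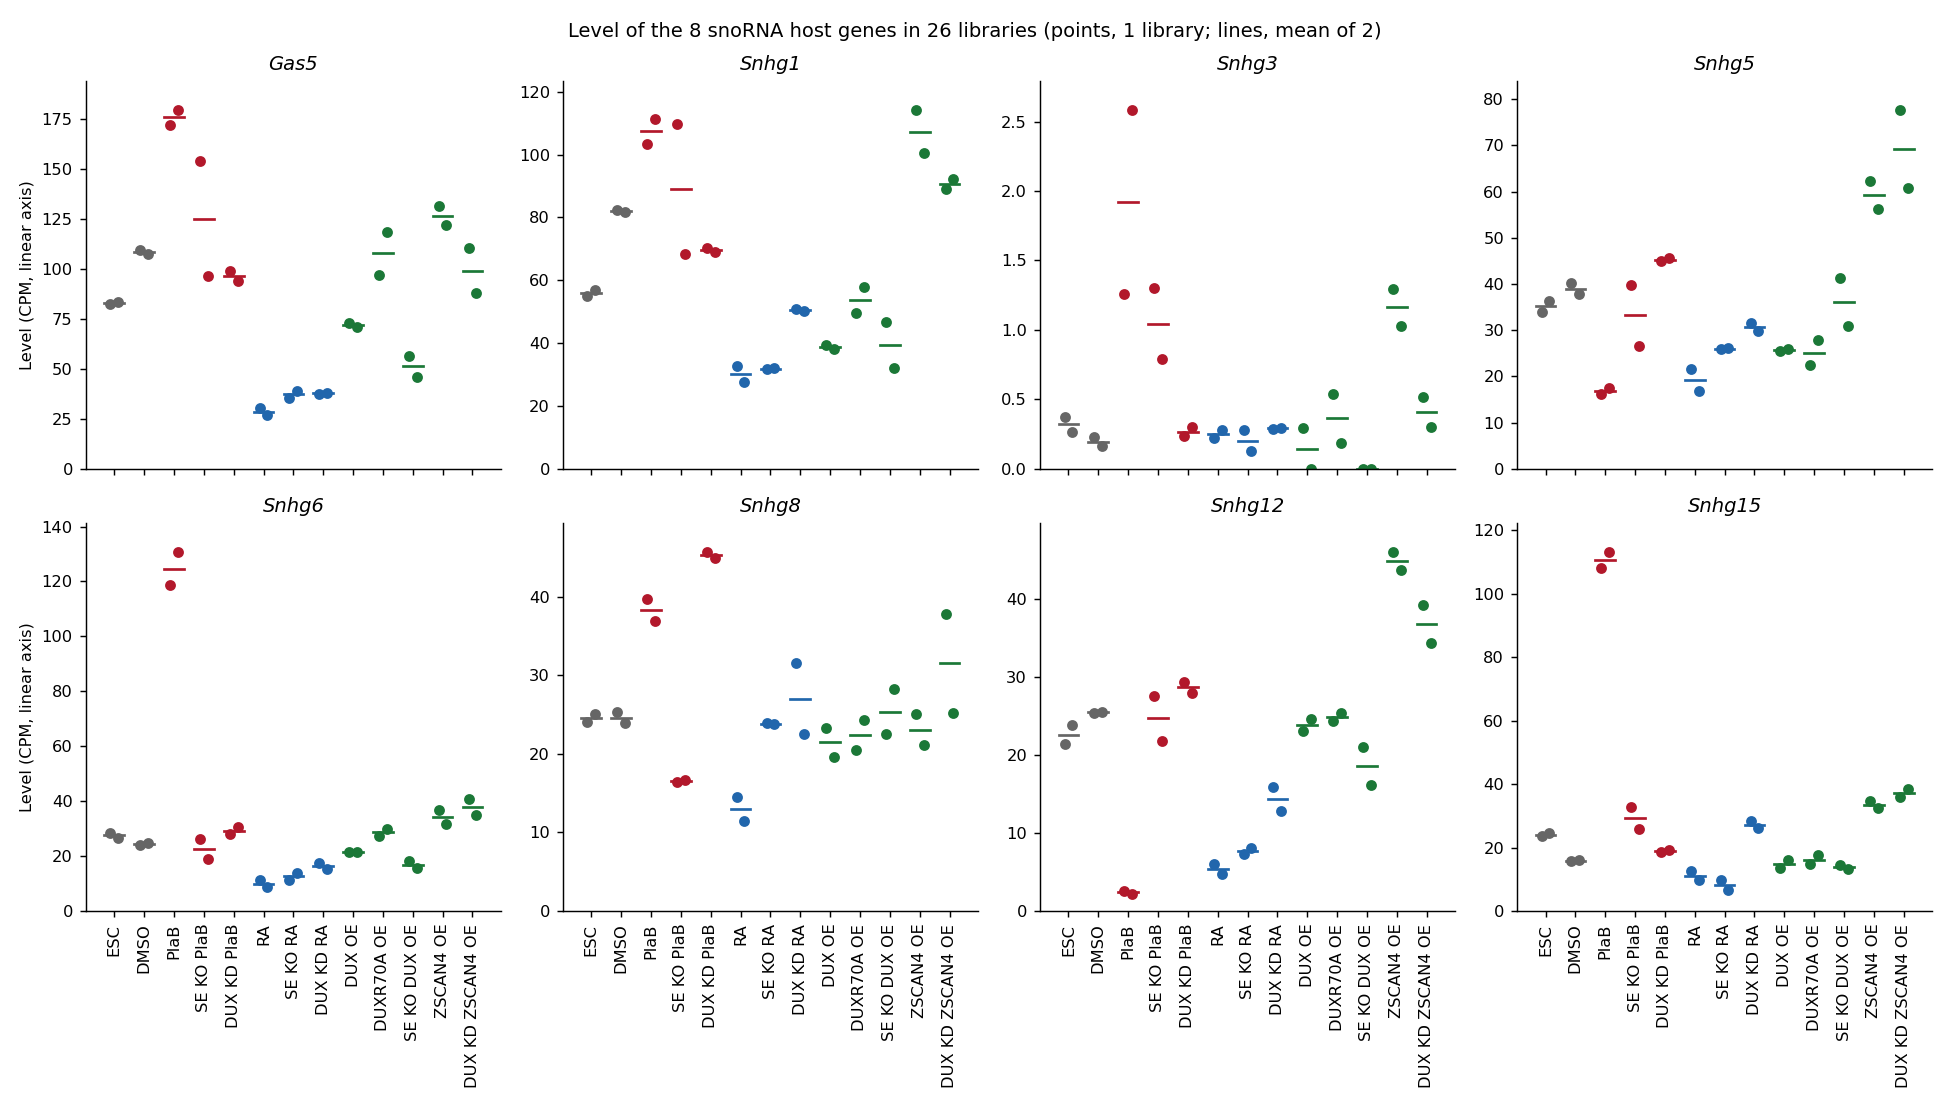
Level of each host in CPM (vertical axes, linear and separate for each gene) in 26 libraries. Points are libraries, lines are means of 2, grey marks controls, red PlaB groups, blue RA groups and green overexpression groups. Gas5, Snhg6 and Snhg15 stood highest in PlaB, with no overlap with another group. Snhg12 and Snhg5 had their lowest means in PlaB, and for Snhg5 the PlaB and RA libraries overlapped. The means of 7 of the 8 genes were lower in RA than in DMSO.

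SE KO PlaB and DUX KD PlaB against DMSO gave the same agent in the modified cells. In SE KO PlaB only Snhg3 was called at 2-fold (higher, 17.1% of all genes), at 30 and 17 reads (log2 fold change 2.39, SE 0.68, adjusted p = 0.00396). At an adjusted p under 0.05 alone, 2 hosts were higher (29.6% of all genes) and 1 lower (26.5% of all genes). Snhg15 was the other higher one, at 32.6 and 25.9 CPM (log2 fold change 0.88, adjusted p = 6.5e-06), and its value rose to 1.04 when replicate 2 was left out. In ESC, the other control, Snhg15 was at 23.7 and 24.5 CPM. Snhg8 was the lower one, at 16.4 and 16.7 CPM (log2 fold change -0.58, adjusted p = 0.00454). Snhg12, at 27.6 and 21.8 CPM, and Snhg6, at 26.1 and 18.8 CPM, did not pass the test against DMSO (intervals of the log2 difference from -0.32 to 0.23 and from -0.41 to 0.16). The SE KO PlaB libraries stood apart from each other: Gas5 was at 154 and 96.1 CPM and Snhg1 at 110 and 68.4 CPM, both higher in replicate 1.

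In DUX KD PlaB no host reached 2-fold (11.7% of all genes did, in either direction), and 1 was higher at an adjusted p under 0.05 (17.7% of all genes). That host was Snhg8, at 45.7 and 44.9 CPM (log2 fold change 0.88, SE 0.16, adjusted p = 9.9e-05), its highest level in any group. Snhg12 stood at 29.3 and 28.0 CPM, Snhg6 at 28.2 and 30.4 CPM and Snhg15 at 18.7 and 19.3 CPM, with log2 fold changes of 0.17, 0.26 and 0.26 that did not pass. In the same libraries Zscan4d had 34 and 44 reads, beside 40 and 25 in DMSO.

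RA against DMSO gave a different picture, with nearly all hosts lower. At an adjusted p under 0.05, 7 of 8 fell (26.6% of all genes), and 5 of them by at least 2-fold (10.4% of all genes). The median of the hosts was -1.16 on the log2 scale, beside 0.11 for all genes tested. Snhg12 fell from 25.4 and 25.5 CPM to 5.99 and 4.75 CPM (4.73-fold, log2 fold change -2.24, SE 0.16, adjusted p = 1.9e-12). Gas5 fell from 109 and 107 CPM to 30.5 and 26.8 CPM (3.79-fold, log2 fold change -1.92, SE 0.15, adjusted p = 1.9e-11). Thus Gas5 was lower in RA and higher in PlaB than in DMSO, with no overlap of libraries on either side.

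Snhg1 fell to 32.7 and 27.5 CPM (log2 fold change -1.44, adjusted p = 8.7e-09, but -0.89 against ESC, short of 2-fold) and Snhg6 to 11.2 and 8.70 CPM (log2 fold change -1.30, adjusted p = 2.4e-08). Snhg5 fell to 21.5 and 16.9 CPM, at the edge of 2-fold (log2 fold change -1.02, adjusted p = 3.8e-06), and it lay short of 2-fold without RA replicate 2 (-0.86), with RLE factors (-0.995), with DESeq2 (-0.996), with library size alone (-0.83) and against ESC (-0.87). Snhg8 at 14.6 and 11.4 CPM and Snhg15 at 12.5 and 9.82 CPM fell by less than 2-fold (log2 fold changes -0.92 and -0.50, adjusted p = 3.9e-05 and 0.0055). Against ESC, Snhg15 passed 2-fold (-1.11). Snhg3, at 5 and 6 reads, did not pass (log2 fold change 0.34, interval -1.35 to 2.04), and at this depth a 2-fold change in it was not detectable. Snord87 had 4 and 0 reads.

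In SE KO RA, 6 hosts were lower at an adjusted p under 0.05 (25.3% of all genes) and 3 of them by 2-fold, namely Gas5, Snhg1 and Snhg12 (9.88% of all genes). Gas5 stood at 35.6 and 38.8 CPM, Snhg1 at 31.7 and 32.0 CPM and Snhg12 at 7.30 and 8.08 CPM, with log2 fold changes of -1.54, -1.36 and -1.73. Against ESC, Snhg1 lay short of 2-fold (-0.81), while Snhg6 (-1.13) and Snhg15 (-1.57) passed it. Snhg8, at 23.9 and 23.8 CPM, did not pass (log2 fold change -0.05, interval -0.38 to 0.29).

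In DUX KD RA, 4 hosts were lower (26.6% of all genes) and 1 higher (32.9% of all genes), and only Gas5 was 2-fold lower (9.90% of all genes), at 37.5 and 37.8 CPM (log2 fold change -1.53, adjusted p = 1.6e-09). The higher one was Snhg15, at 28.4 and 26.02 CPM against 15.6 and 16.1 CPM in DMSO (log2 fold change 0.78, SE 0.14, adjusted p = 4.2e-05). ESC, the other control, had Snhg15 at 23.7 and 24.5 CPM, closer to DUX KD RA than DMSO was. Snhg12 stood between RA and DMSO, at 15.9 and 12.8 CPM. The 6 comparisons with DMSO share its 2 libraries.

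**Figure D4:**
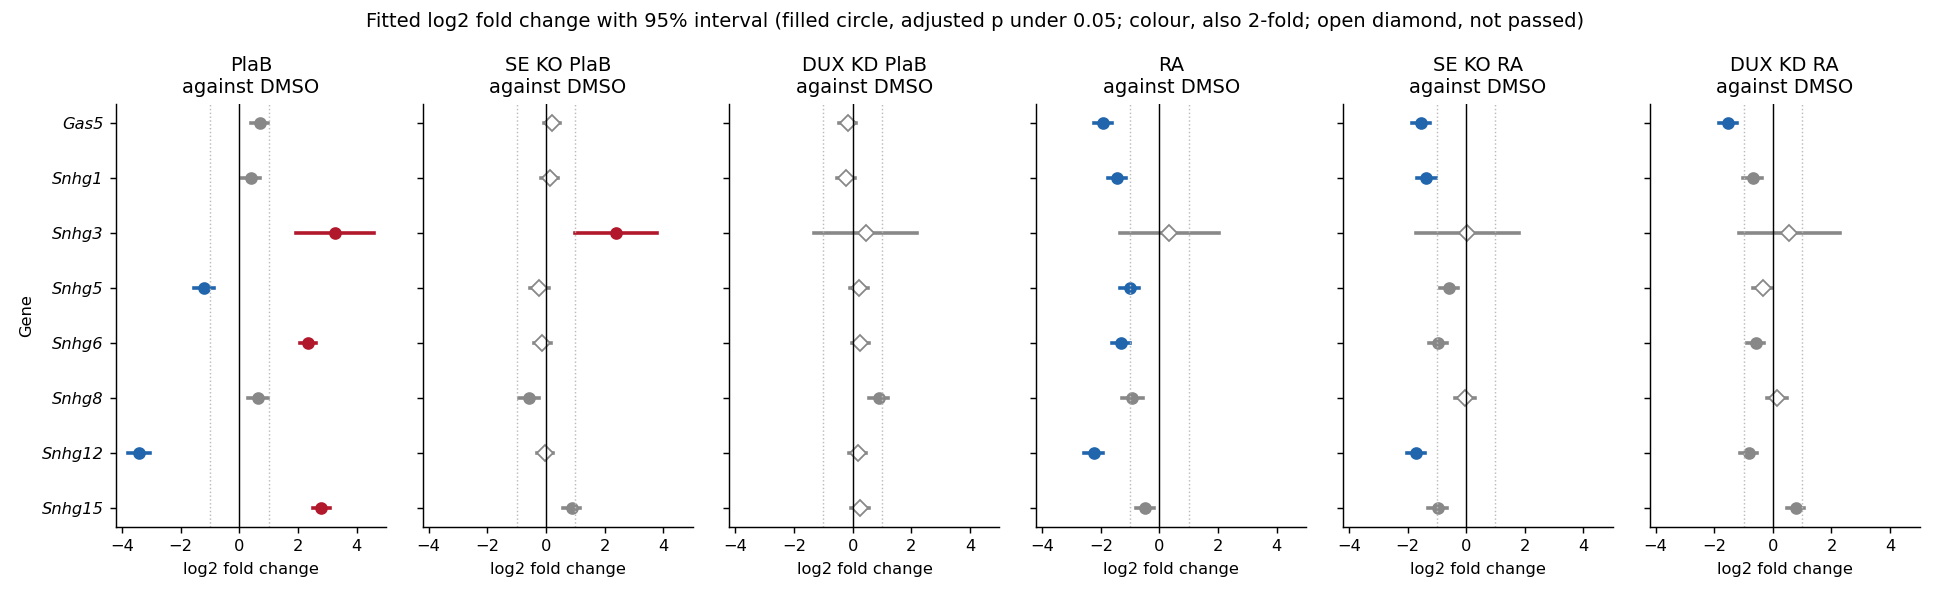
Log2 fold change against DMSO with its 95% interval (horizontal axes) for each host in PlaB and RA groups. Filled circles passed an adjusted p of 0.05, coloured ones were also 2-fold (red higher, blue lower), and open diamonds did not pass. Snhg12 lies at -3.42 in PlaB and near 0 in both modified PlaB groups, and the 3 RA panels lie mostly to the left of 0.

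The overexpression groups were compared with untreated ESC. In ZSCAN4 OE, 6 of 8 hosts rose at an adjusted p under 0.05 (18.9% of all genes), and Snhg3 by 2-fold (7.25% of all genes). Snhg12 rose from 21.4 and 23.8 CPM to 46.0 and 43.7 CPM (1.98-fold, log2 fold change 0.99, SE 0.14, adjusted p = 1.9e-06), its highest level in any group. Snhg1 rose from 55.0 and 56.8 CPM to 114 and 100 CPM (1.92-fold, log2 fold change 0.94, SE 0.15, adjusted p = 1.7e-05), and Snhg5 from 34.0 and 36.4 CPM to 62.4 and 56.3 CPM (1.69-fold, log2 fold change 0.75, adjusted p = 2.8e-04). Gas5 and Snhg15 rose by 0.61 and 0.48 on the log2 scale (adjusted p = 0.0011 and 0.00771). Snhg3 had 20 and 19 reads, against 6 and 4 (log2 fold change 1.83, adjusted p = 0.0265), and its adjusted p ran from 0.0557 to 0.153 when any of the 4 libraries was left out. Snhg6 (0.31) and Snhg8 (-0.09) did not pass.

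In the libraries labelled DUX KD ZSCAN4 OE, 5 hosts rose at an adjusted p under 0.05 (15.5% of all genes) and none reached 2-fold (8.11% of all genes in either direction). Snhg5 rose the most, to 77.7 and 60.8 CPM (log2 fold change 0.98, SE 0.15, adjusted p = 1.6e-05), and without replicate 2 its value was 1.14. Against DMSO in place of ESC, Snhg15 passed 2-fold (log2 fold change 1.23). Against ZSCAN4 OE itself, 1 host was higher at an adjusted p under 0.05 (15.9% of all genes), Snhg8 (log2 fold change 0.46, adjusted p = 0.0346), and none differed 2-fold (11.1% of all genes in either direction). Snhg8 was at 37.8 and 25.3 CPM in DUX KD ZSCAN4 OE and at 25.1 and 21.1 CPM in ZSCAN4 OE. Replicate 2 of DUX KD ZSCAN4 OE thus lay close to the higher ZSCAN4 OE library, and the rise rested mainly on replicate 1.

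In DUX OE no host differed from ESC by 2-fold (9.51% of all genes in either direction). At an adjusted p under 0.05, 3 were lower (12.8% of all genes): Snhg15 at 13.5 and 16.2 CPM against 23.7 and 24.5 CPM (log2 fold change -0.70, adjusted p = 8.1e-04), Snhg1 at 39.3 and 38.1 CPM (-0.53, adjusted p = 0.0133) and Snhg5 at 25.4 and 25.9 CPM (-0.46, adjusted p = 0.0371). In DUXR70A OE none reached 2-fold (16.9% of all genes in either direction). Gas5 was higher there (log2 fold change 0.38, 21.6% of all genes), while Snhg15 (-0.58) and Snhg5 (-0.49) were lower (23.0% of all genes). In DMSO, the other control, Snhg15 was at 15.6 and 16.1 CPM, within the range of DUX OE and of DUXR70A OE (14.7 and 17.6 CPM). Gas5 in DMSO (109 and 107 CPM) likewise lay within that of DUXR70A OE (97.0 and 118 CPM). Snhg1 (82.3 and 81.6 CPM) and Snhg5 (40.2 and 37.9 CPM) in DMSO lay above DUX OE. Between DUXR70A OE and DUX OE, 3 hosts were higher with the mutant at an adjusted p under 0.05 (17.3% of all genes), namely Gas5 (0.58), Snhg1 (0.47) and Snhg6 (0.41), and none by 2-fold (13.6% of all genes in either direction).

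In SE KO DUX OE, 5 hosts were lower than in ESC at an adjusted p under 0.05 (18.5% of all genes), and 1 passed the 2-fold rule (3.84% of all genes). That 1 was Snhg3, which had 0 reads in both libraries, a level at least 3.60-fold lower than in ESC when 3 reads per library are taken as the floor. Snhg15 (-0.80), Snhg6 (-0.70), Gas5 (-0.69) and Snhg1 (-0.50) were the others, on the log2 scale. Snhg15 was at 14.5 and 13.1 CPM in SE KO DUX OE, beside 15.6 and 16.1 CPM in DMSO. The SE KO DUX OE libraries also held reads of all 6 fibroblast markers. Means were 12.9 CPM for Postn against 0 in ESC and 19.9 for Col1a2 against 0.455. The summed level was 115 to 117 CPM against 24.5 to 26.6. Thy1 gave the largest part of it, at 66.7 CPM against 23.1 in ESC and 41.9 in DUX OE. Lum, at 0.0919 CPM, was close to 3 reads per library. The part of these marker differences in the host values was not tested. Against DUX OE, 2 hosts were lower (14.0% of all genes) and 1 higher (11.5% of all genes) at an adjusted p under 0.05. Gas5 was lower at 56.6 and 45.9 CPM against 73.1 and 70.7 CPM (-0.49, adjusted p = 0.0139), and Snhg5 was higher (0.49, adjusted p = 0.0212). Snhg3 passed the 2-fold rule by its fitted value (lower, 3.84% of all genes). DUX OE replicate 2 had no Snhg3 read either, so the counts set no minimum fold. That call rested on 4 and 0 reads in DUX OE, and it was lost without either SE KO DUX OE library (adjusted p = 0.156 and 0.111) or without DUX OE replicate 1, where the fitted value was 0.

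DMSO and ESC, the control groups, differed in the hosts too. None differed by 2-fold (16.2% of all genes in either direction). Snhg1 (0.55) and Gas5 (0.39) were higher in DMSO (21.2% of all genes) and Snhg15 (-0.60) was lower (22.4% of all genes), at adjusted p = 0.00421, 0.0284 and 0.00132. With DMSO in place of ESC as control, Snhg1 passed 2-fold in DUX OE (-1.08). In SE KO DUX OE, Gas5 (-1.08) and Snhg1 (-1.05) did so.

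Within each agent, the modified cells were then set against unmodified ones. Under PlaB, DUX KD cells differed by 2-fold in 5 hosts. Snhg12 (log2 fold change 3.59, SE 0.18) and Snhg5 (1.42) were higher (26.1% of all genes), and Snhg3 (-2.82), Snhg15 (-2.54) and Snhg6 (-2.09) were lower (28.8% of all genes), all at an adjusted p of 2.2e-04 or less. SE KO cells differed by 2-fold in 4 hosts. Snhg12 (3.38, SE 0.17) was higher (25.9% of all genes), and Snhg6 (-2.47), Snhg15 (-1.92) and Snhg8 (-1.21) were lower (26.1% of all genes), at an adjusted p of 1.9e-07 or less. Both comparisons share the PlaB libraries with PlaB against DMSO. Snhg8 was 45.7 and 44.9 CPM in DUX KD PlaB, 39.8 and 36.9 CPM in PlaB and 16.4 and 16.7 CPM in SE KO PlaB.

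Under RA most of the differences that passed were upward. DUX KD cells had 7 of 8 hosts higher at an adjusted p under 0.05 (18.0% of all genes) and 3 by 2-fold (6.41% of all genes): Snhg12 (log2 fold change 1.41, SE 0.16, adjusted p = 1.3e-07), Snhg15 (1.28, SE 0.15, adjusted p = 1.3e-07) and Snhg8 (1.05, SE 0.17, adjusted p = 1.8e-05). Snhg8 was at 31.6 and 22.5 CPM in DUX KD RA and lay short of 2-fold without replicate 1 (0.79) or without RA replicate 2 (0.89). SE KO cells had 4 hosts higher (21.3% of all genes) and 1 lower (24.7% of all genes), none by 2-fold (17.6% of all genes in either direction). Snhg8 (0.87), Snhg12 (0.52), Snhg5 (0.44) and Gas5 (0.38) were higher and Snhg15 (-0.46) was lower, and without RA replicate 1 Snhg8 passed 2-fold (1.06).

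The difference between the agents was itself tested. For DUX KD, the log2 difference within PlaB minus that within RA passed at 2-fold in 6 hosts, 1 positive (25.5% of all genes) and 5 negative (26.6% of all genes). For SE KO it did so in 4 hosts, 1 positive (28.3% of all genes) and 3 negative (20.7% of all genes). Snhg12 was the positive one in both cases, at 2.18 (SE 0.24) and 2.86 (SE 0.25), and Snhg6 was negative in both, at -2.80 and -2.81 (SE 0.20 for each). Snhg15 was at -3.82 for DUX KD and -1.45 for SE KO.

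**Figure D5:**
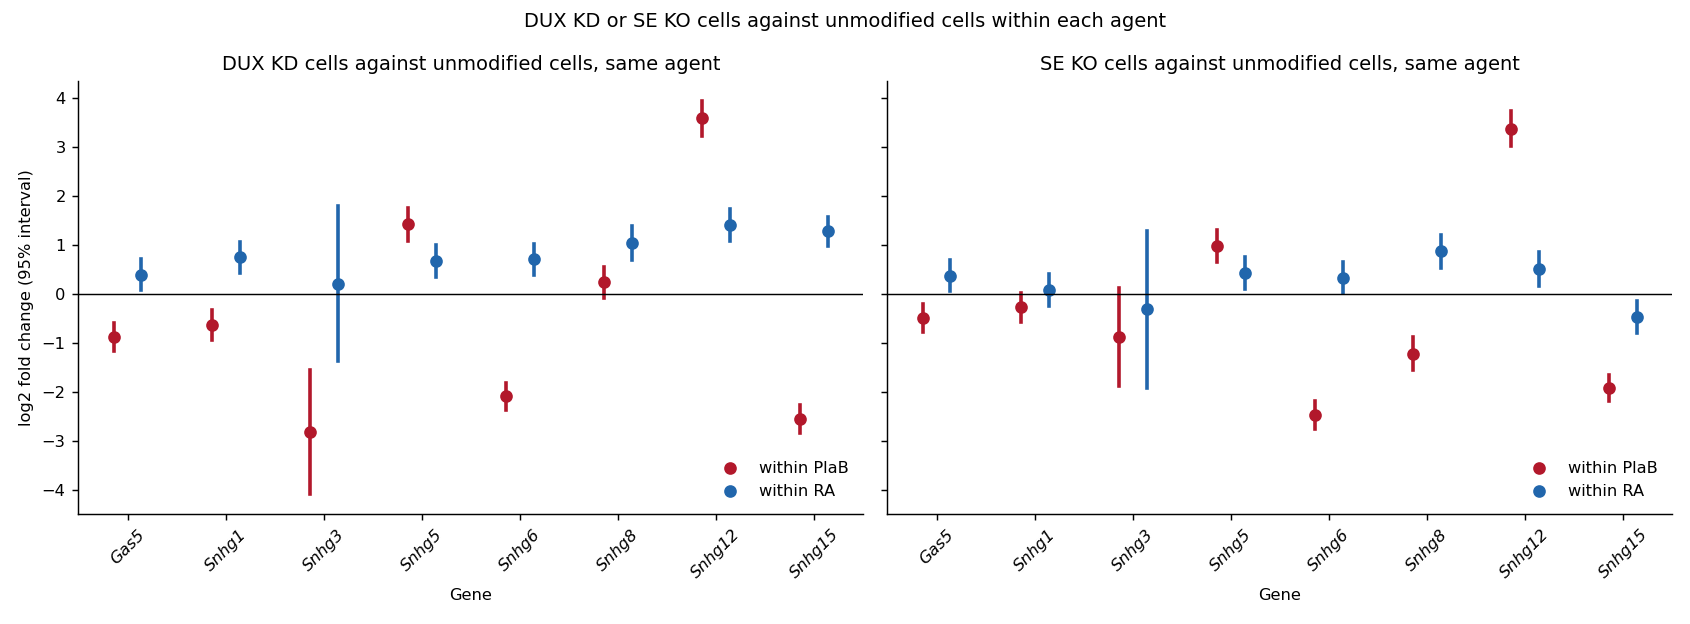
Log2 fold change with its 95% interval (vertical axis) of DUX KD cells (left) and SE KO cells (right) against unmodified cells within PlaB (red) and within RA (blue), for each host. Snhg12 lies at 3.59 and 3.38 within PlaB, and Snhg6 and Snhg15 lie below -1.9 within PlaB in both panels.

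Seen across all 13 groups, the hosts moved together to differing degrees. Over the 28 pairs of hosts, Pearson's r of the group means of log2 CPM ran from -0.23 (Snhg3 with Snhg12) to 0.88 (Snhg6 with Snhg15), with a median of 0.45. Without the PlaB group the median over the same pairs was 0.68 (12 groups), and Snhg6 with Snhg12 went from -0.12 to 0.96. These are descriptions over groups that share libraries, cell line and scaling. The 5 genes outside the lists below whose group means followed the average host profile most closely were Mynn (r = 0.96), Terf1 (0.93), Dnttip2 (0.92), Orc5 (0.92) and Rbm48 (0.92), each over 13 groups.

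Lists of related genes were then counted in PlaB against DMSO, where 35.4% of all genes passed as lower and 41.7% as higher, and 26.6% and 32.3% did so by 2-fold. In RA 26.6% passed as lower, and 10.4% by 2-fold. The list counts are descriptions beside these shares. Other non-coding snoRNA hosts were mixed in PlaB as well. Of 14 that could be tested, 7 rose and 6 fell against DMSO, 4 and 5 of them by 2-fold, with a median of 0.39. The largest fall was that of Snhg18 (log2 fold change -2.91, SE 0.23, adjusted p = 6.1e-12), from 8.05 and 8.60 CPM to 1.02 and 1.18 CPM. Rian, a host of many C/D snoRNAs in an imprinted cluster, had no read in DMSO and 9 and 6 reads in PlaB, at least 2.12-fold higher on the 3-read floor. It had the highest fitted value of the list, which these counts do not establish as the largest rise. In RA, 8 of the 14 fell and 7 of these by 2-fold, with a median of -1.15.

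Of 26 protein-coding genes that carry snoRNAs in their introns, 18 fell and 5 rose in PlaB, 13 and 1 of them by 2-fold, with a median of -0.95. Rpl7a, a protein of the large ribosomal subunit, fell from 2413 and 2462 CPM to 179 and 155 CPM (log2 fold change -3.87, SE 0.11, adjusted p = 2.4e-21). Hspa8, the constitutive HSP70 chaperone, rose from 2246 and 2297 CPM to 4830 and 4460 CPM (1.03, SE 0.09, adjusted p = 1.3e-10).

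The genes that act on the spliced host RNA include those of NMD. Of 14 NMD factors, 12 fell and 1 rose, 9 and 0 by 2-fold, with a median of -1.21. Upf1, the helicase at the centre of the pathway, fell the most, from 177 and 178 CPM to 22.8 and 27.7 CPM (log2 fold change -2.81, SE 0.10, adjusted p = 1.4e-19). The same 14 genes had a median of -0.09 in SE KO PlaB, -0.02 in DUX KD PlaB and -0.42 in RA, where 7 fell and 1 of these by 2-fold. Of 7 genes of the exon junction complex, which marks the junctions that NMD reads, 4 fell and 2 rose in PlaB, 2 and 1 by 2-fold. Casc3 fell (log2 fold change -2.35, SE 0.08, adjusted p = 7.0e-20), whereas Magohb rose from 1.13 and 0.548 CPM to 9.63 and 10.02 CPM (3.54, SE 0.30, adjusted p = 2.2e-11).

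A list of 14 mRNAs known from other systems as NMD targets gave the following counts in PlaB: 10 fell and 2 rose, 9 and 2 by 2-fold, with a median of -1.29. This list includes 6 NMD factors that are themselves targets. Gadd45a, a stress-response gene, fell from 40.4 and 39.4 CPM to 3.44 and 3.40 CPM (log2 fold change -3.54, SE 0.12, adjusted p = 8.3e-20). Nat9, an acetyltransferase gene, rose from 8.22 and 8.22 CPM to 30.4 and 30.7 CPM (1.89, SE 0.14, adjusted p = 8.2e-13).

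Of 10 genes of RNA decay and the exosome, 9 fell and 1 rose in PlaB, 5 and 1 by 2-fold, with a median of -1.07. Dis3, an exosome nuclease, fell from 181 and 172 CPM to 27.0 and 30.9 CPM (log2 fold change -2.61, SE 0.09, adjusted p = 4.9e-20), and the exosome core gene Exosc3 rose (1.11, SE 0.08, adjusted p = 1.0e-12). Of 8 protein genes of the snoRNA particles, 4 fell and 3 rose, 2 and 0 by 2-fold. Gar1, of the H/ACA particle, fell from 94.2 and 85.8 CPM to 6.10 and 5.67 CPM (log2 fold change -3.93, SE 0.12, adjusted p = 3.7e-21). In RA all 8 fell, 5 of them by 2-fold, with a median of -1.22.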

How the data were processed

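Poly(A)-selected RNA of 26 libraries was sequenced by the authors, whose processing notes name FastQC, Trimmomatic, STAR, featureCounts, DESeq2 and build mm10, with versions, counting options and strand setting not given in the sources used here. The authors deposited 1 table of raw counts per gene with exon positions and lengths, in the featureCounts layout, and every sample column (26 of 26) was matched to a sample by its name. Counts were used as deposited. Genes with low counts were removed with filterByExpr, leaving 20953 genes. A quasi-likelihood model with 1 mean per group was fitted over all 26 libraries with TMM factors in edgeR 4.0.16 (R 4.3.3). Differences were tested with its F test, with Benjamini-Hochberg adjustment over all genes tested. SEs were taken as the log2 fold change over the square root of F. Intervals cover 95%. The procedure was tested on simulated data with few changed genes, as many higher as lower. Its scaling under changes as wide as those in PlaB was not tested. CPM values used TMM-scaled library sizes. Positions were compared with GENCODE M21, which gave the same start and end for 99.3% of shared gene names. Sequences came from RefSeq tables and GENCODE transcripts.

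The 8 hosts and all gene lists were chosen with earlier results of these data known. The named genes were all hosts, each snoRNA gene inside a host with at least 10 reads in a library, the largest rise and fall called in PlaB against DMSO in each list, and the 5 genes outside the lists (average log2 CPM no lower than 3) whose 13 group means correlated best with the average standardized host profile. Of 17 listed non-coding hosts, 3 were absent from the table or below the filter and were not tested. Duxf3, Zscan4d and the genes overlapping a host are given beside the results they touch. Alternatives were RLE factors, library size alone, no filter, DESeq2 1.42.0, only the groups compared, the replicate number as a block, no minimum fold, the other control and omission of each library. Their use for the lists and for the neighbours of the hosts was added after seeing the data.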

Additional observations from a re-analysis of the deposited data

Results flagged for a closer look

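The difference between unmodified and modified cells was not the same under PlaB as under RA for several hosts, by a test of that difference itself (edgeR, adjusted over all genes). For DUX KD the log2 difference within PlaB minus that within RA was -1.26 for Gas5, -1.38 for Snhg1, -3.04 for Snhg3, -2.80 for Snhg6, 2.18 for Snhg12 and -3.82 for Snhg15, at adjusted p = 6.3e-06, 3.3e-06, 0.0113, 1.8e-12, 1.1e-08 and 2.1e-15. The Snhg3 value was -2.42 without PlaB replicate 2 (adjusted p = 0.0547). For SE KO it was -2.81 for Snhg6, -2.09 for Snhg8, 2.86 for Snhg12 and -1.45 for Snhg15, at adjusted p = 1.7e-12, 1.0e-08, 6.3e-11 and 5.6e-07. In all of these except Snhg12 the modified cells were lower relative to unmodified cells under PlaB than under RA. The DUX KD PlaB libraries, with Zscan4d at 34 and 44 reads beside 87207 and 97211 in PlaB, enter every DUX KD value, and SE KO RA replicate 1, whose genotype label reads WT, enters every SE KO value.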

How the results depend on the processing

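The number of hosts called differed by less than 1.5 times in all 21 comparisons with RLE factors, with DESeq2 and with the replicate number as a block (5 in PlaB against DMSO with the block). Same-numbered libraries did not deviate together (r from -0.08 to 0.02 over 19 comparisons), so the numbers were not taken to pair samples. Without a minimum fold the counts were 8 in PlaB, 3 in SE KO PlaB, 1 in DUX KD PlaB, 6 in SE KO RA and 5 in DUX KD RA against DMSO, and, against ESC, 3 each in DMSO, DUX OE and DUXR70A OE, 5 each in SE KO DUX OE and DUX KD ZSCAN4 OE and 6 in ZSCAN4 OE, 7 in DUX KD RA and 5 in SE KO RA against RA, 1 in DUX KD ZSCAN4 OE against ZSCAN4 OE, and 3 each in SE KO DUX OE and DUXR70A OE against DUX OE, because the rule is wider. With library size alone they were 1 in DUX KD ZSCAN4 OE, 2 each in SE KO PlaB and DUX KD RA, and 3 in ZSCAN4 OE. Without the filter ZSCAN4 OE had 2. With only the groups compared, ZSCAN4 OE had 2, DUX KD ZSCAN4 OE against ESC 1, and SE KO DUX OE 0 against ESC and 0 against DUX OE. With DMSO in place of ESC the counts were 1 each in DUX OE and DUX KD ZSCAN4 OE, 3 in SE KO DUX OE and 2 in ZSCAN4 OE. Of the exon junction complex genes, 2 were called higher in PlaB with RLE factors and with library size alone, against 1 with TMM. The cause of these shifts was not tested.

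With each library left out in turn, the counts ran from 5 to 5 in PlaB, 1 to 2 in SE KO PlaB, 0 to 0 in DUX KD PlaB, 4 to 6 in RA, 3 to 4 in SE KO RA and 1 to 1 in DUX KD RA against DMSO. Against ESC they ran from 0 to 0 in DUX OE, DUXR70A OE and DMSO, 0 to 1 in DUX KD ZSCAN4 OE, 1 to 1 in SE KO DUX OE and 0 to 2 in ZSCAN4 OE. Within agents they ran from 5 to 5 (DUX KD PlaB), 4 to 5 (SE KO PlaB), 2 to 3 (DUX KD RA) and 0 to 1 (SE KO RA), and 0 to 0 (DUX KD ZSCAN4 OE), 0 to 1 (SE KO DUX OE) and 0 to 1 (DUXR70A OE) within overexpression. For the difference between agents they ran from 5 to 7 (DUX KD) and 4 to 5 (SE KO). The fitted log2 fold change of Snhg3, SE KO DUX OE against DUX OE, ran from -5.53 to 0, the latter without DUX OE replicate 1, where no remaining library had a read. Mcmdc2, in SE KO PlaB, was -1.18 on the log2 scale against ESC in place of DMSO, the opposite sign, in an alternative added after seeing the data. The share of called genes that were higher moved by over 10 percentage points with library size alone in RA (66.5% to 76.7%) and DUX KD RA (69.0% to 80.5%) against DMSO, DUXR70A OE (60.4% to 77.5%) and ZSCAN4 OE (62.3% to 76.6%) against ESC, and DUXR70A OE against DUX OE (44.8% to 58.9%). Depth limits Snhg3 and Snord87, whose counts were mostly under 30.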
